A study of Homo sapiens with 12 samples.

Results

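The MHC class I presentation genes described here are 9 of the 63677 genes in the count table, taken by name: *HLA-B*, *HLA-C*, *HLA-E*, *B2M*, *TAP1*, *TAP2*, *TAPBP*, *NLRC5* and *ERAP1*. The HLA, TAP and *TAPBP* genes lie on chromosome 6, *B2M* on chromosome 15, *NLRC5* on chromosome 16 and *ERAP1* on chromosome 5. All 9 were among the 18674 genes with enough reads to be tested. RNA-seq of polyA RNA was performed in 3 mantle cell lymphoma (MCL) cell lines, JEKO1, JVM2 and MAVER1, kept as untreated controls or exposed for 48 h to ironomycin, to ibrutinib or to the combination. Ironomycin, derived from salinomycin, disturbs the handling of iron by the cell, and ibrutinib inhibits Bruton's tyrosine kinase (BTK), a kinase of B-cell receptor signaling. JEKO1 received 50 nM ironomycin and 0.5 µM ibrutinib, JVM2 received 250 nM and 1.5 µM, and MAVER1 received 250 nM and 6.25 µM. Each line and treatment had 1 library, so the 3 lines served as the replicates of a treatment, and line and dose cannot be told apart, except that JVM2 and MAVER1 had the same ironomycin dose. A line is 1 established culture, and p-values between lines measure only the spread among the 4 libraries of each line, which nothing says were separate cultures of 1 treatment.

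MHC class I molecules display peptides from inside the cell to CD8+ T cells. A heavy chain (*HLA-B*, *HLA-C* or the non-classical *HLA-E*) pairs with β2-microglobulin, the product of *B2M*, in the endoplasmic reticulum. Peptides made by the proteasome are carried into the endoplasmic reticulum by the TAP transporter, a dimer of the *TAP1* and *TAP2* products, trimmed there by the aminopeptidase ERAP1 and loaded with the help of tapasin, the product of *TAPBP*. NLRC5 is a transactivator that acts on promoters of class I genes, and interferon signaling raises their transcription. B cells carry class I on their surface as nearly all nucleated cells do.

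The library totals lay between 35448523 and 38630809 reads assigned to genes. B-cell markers summed to between 3720 and 7570 CPM (read counts scaled to the TMM-corrected library size) in each library, whereas markers of T cells, NK cells and monocytes summed to at most 9.19 CPM. The 3 plasma cell markers *SDC1*, *PRDM1* and *TNFRSF17* summed to 9.88 to 42.8 CPM in JEKO1, 85.5 to 181 in MAVER1 and 187 to 272 in JVM2, an order of lines shared with most of the class I genes, and their part in the differences below was not tested. Of the MCL markers, *SOX11* had no read in the JVM2 libraries and *CD5* at most 0.0549 CPM there, and *CCND1* was at 216 to 322 CPM in JVM2 against 2180 to 4830 CPM in the other lines. In bulk RNA, fewer expressing cells and less RNA per cell cannot be told apart.

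The promoters of the classical genes are shown because these genes differed together between the lines. In the RefSeq promoter table (GRCh38.p14, 250 bases before each start), 7 of the 9 genes had an entry. *HLA-B*, *HLA-C* and *B2M* held all of 3 searched motifs on either strand: the interferon regulatory factor core AANNGAAA, the TGACG core bound by CREB-family factors, and CCAAT, bound by NF-Y. All 3 motifs occurred together in 1.193% of the 35116 promoters in the table, AANNGAAA alone in 20.307%, TGACG in 21.218% and CCAAT in 32.008%. AANNGAAA can overlap itself, and a match describes the letters only. The 200 bases before the start read 5′ to 3′ as follows, with each motif or its complement in capitals, on the minus strand for all but *B2M*:
HLA-B, chr6:31357180-31357379: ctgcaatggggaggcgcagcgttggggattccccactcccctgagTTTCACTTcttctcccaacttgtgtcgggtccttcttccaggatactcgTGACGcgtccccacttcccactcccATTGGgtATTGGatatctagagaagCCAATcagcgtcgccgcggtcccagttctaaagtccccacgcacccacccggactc
HLA-C, chr6:31272093-31272292: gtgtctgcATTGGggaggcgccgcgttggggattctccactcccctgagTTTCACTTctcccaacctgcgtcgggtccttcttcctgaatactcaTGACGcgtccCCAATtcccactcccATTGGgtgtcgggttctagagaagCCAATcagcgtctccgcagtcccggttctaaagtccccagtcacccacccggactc
B2M, chr15:44711317-44711516: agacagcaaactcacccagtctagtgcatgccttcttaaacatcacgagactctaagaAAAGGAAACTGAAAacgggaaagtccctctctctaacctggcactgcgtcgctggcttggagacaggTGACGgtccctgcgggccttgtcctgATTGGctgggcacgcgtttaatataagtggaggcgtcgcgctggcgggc
TAP1, chr6:32853705-32853904: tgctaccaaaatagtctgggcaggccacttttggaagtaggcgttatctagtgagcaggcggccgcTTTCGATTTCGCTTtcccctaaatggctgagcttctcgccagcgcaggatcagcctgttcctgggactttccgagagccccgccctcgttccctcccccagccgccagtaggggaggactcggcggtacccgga
The *HLA-B* and *HLA-C* windows were identical at 179 of 204 aligned columns (87.7%). *TAP1*, like *TAP2* and *TAPBP*, held a pair of overlapping AANNGAAA matches, at 134 and 128 bases before 1 of its 2 listed starts. No TGACG lay within 250 bases before either *TAP1* start.

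The cell line set the level of the class I genes. JEKO1 was the lowest line for 8 of the 9 genes and JVM2 the highest for 8 of 9. All 9 genes differed across the lines (edgeR quasi-likelihood test, Benjamini-Hochberg adjusted over 18674 genes, adjusted p from 4.63e-10 for *HLA-E* to 4.77e-05 for *NLRC5*). The lines differed at 90% of all genes tested, so a call by itself sets these genes apart little, and the sizes are given gene by gene. All levels below are log2 CPM after TMM scaling, with the order control, ironomycin, ibrutinib and both drugs.

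**Figure D1:**
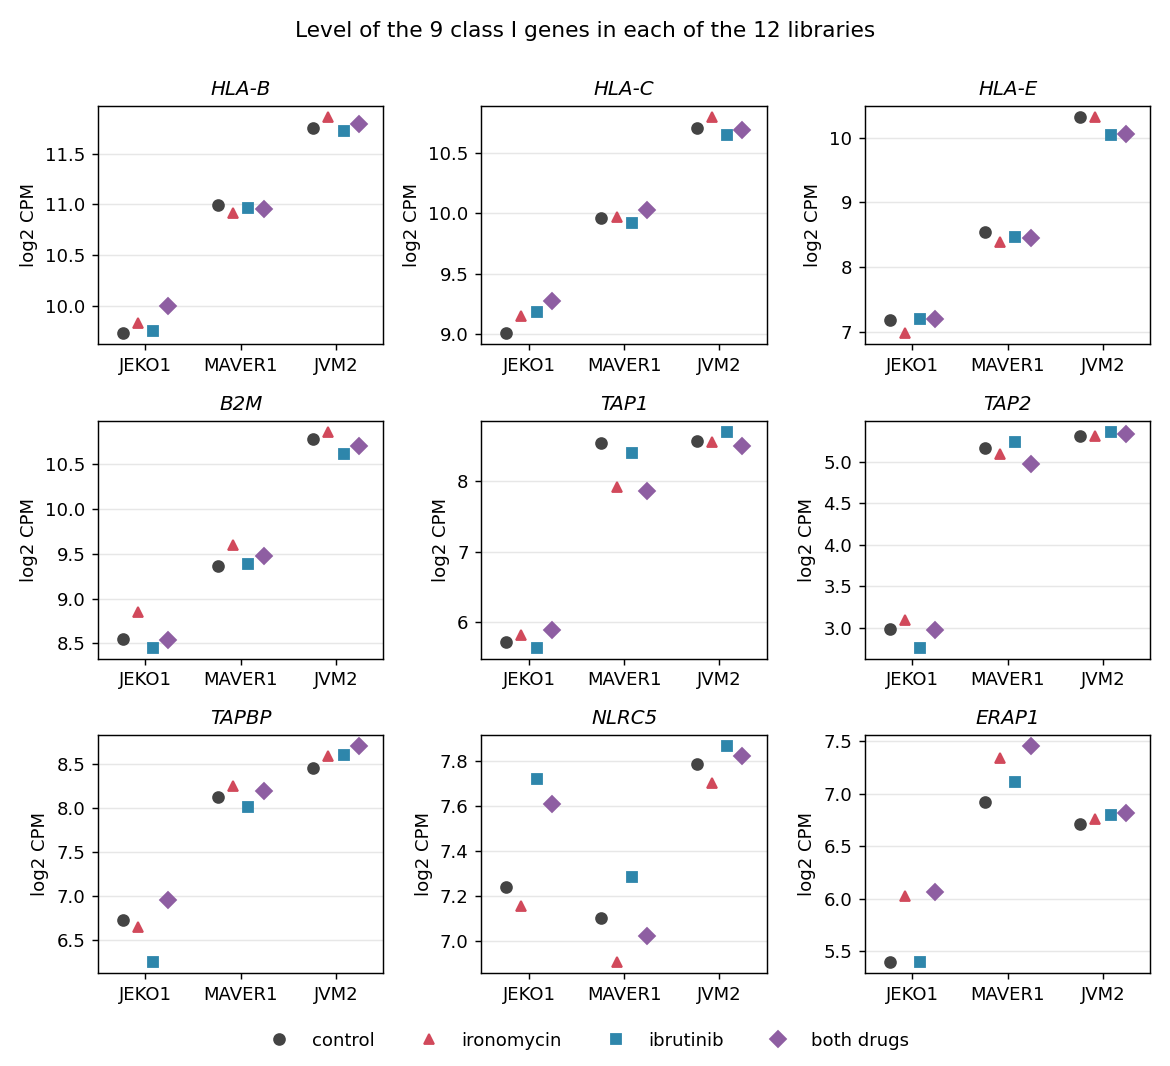
Level of each gene (y axis, log2 CPM, own scale in each panel) in the 12 libraries, grouped by cell line (x axis) and marked by treatment, 1 library per point. JEKO1 lies below the other lines in all panels but *NLRC5*, and *ERAP1* is the panel in which MAVER1 lies highest.

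*HLA-E*, which presents leader peptides of other class I chains to NK-cell receptors, had the widest range of the 9. Its level was 7.17, 6.98, 7.19 and 7.19 in JEKO1, 10.32, 10.32, 10.05 and 10.05 in JVM2, and 8.54, 8.38, 8.46 and 8.44 in MAVER1. The lines did not overlap. JEKO1 was lower than JVM2 by a log2 difference of -3.06 (SE 0.10, adjusted p = 3.47e-10), which is 0.12 times the JVM2 level, and lower than MAVER1 by -1.32 (SE 0.09, adjusted p = 2.83e-07).

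*HLA-B*, one of the classical heavy chains, was at 9.73, 9.83, 9.75 and 10.0 in JEKO1, at 11.76, 11.86, 11.72 and 11.79 in JVM2, and at 10.99, 10.91, 10.96 and 10.95 in MAVER1. *HLA-C*, the other, was at 9.01 to 9.27 in JEKO1, 10.65 to 10.79 in JVM2 and 9.92 to 10.03 in MAVER1. Neither gene overlapped between the lines, and the order was the same as for *HLA-E*. JEKO1 against JVM2 differed by -1.96 (SE 0.09) for *HLA-B* and by -1.56 (SE 0.08) for *HLA-C*. Exons of these genes overlap on 1 strand in GENCODE v29 and the alleles of each line may differ from the reference, so how reads were split between them is uncertain and was not tested.

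*B2M*, the shared light chain, was at 8.55, 8.85, 8.45 and 8.54 in JEKO1, at 10.78, 10.86, 10.61 and 10.71 in JVM2, and at 9.36, 9.60, 9.39 and 9.47 in MAVER1. It followed the heavy chains in the order of the lines. Its difference between JEKO1 and JVM2 was -2.14 (SE 0.08, adjusted p = 8.66e-10). Relative to *B2M* in the same library, *HLA-E* stood at a log2 CPM difference of -1.46 ± 0.28 in JEKO1 (SD, n = 4) and of -0.55 ± 0.08 in JVM2, with MAVER1 between them.

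The transporter genes separated JEKO1 from both other lines. *TAP1* was at 5.72, 5.82, 5.64 and 5.89 in JEKO1, at 8.57, 8.55, 8.70 and 8.50 in JVM2, and at 8.54, 7.91, 8.40 and 7.86 in MAVER1. JVM2 and MAVER1 overlapped in *TAP1*, and JEKO1 lay below both, by -2.81 (SE 0.14) against JVM2 and -2.42 (SE 0.14) against MAVER1. *TAP2* was at 2.76 to 3.10 in JEKO1, 5.31 to 5.37 in JVM2 and 4.98 to 5.24 in MAVER1. It differed by -2.39 (SE 0.10) between JEKO1 and JVM2, but MAVER1 against JVM2 missed the threshold at -0.21 (95% interval -0.41 to -0.02, adjusted p = 0.0511). *TAPBP* ran from 6.25 to 6.95 in JEKO1, 8.46 to 8.71 in JVM2 and 8.02 to 8.25 in MAVER1, with JEKO1 lower than JVM2 by -1.95 (SE 0.11).

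*NLRC5* did not follow its target genes in the order of the lines. It was at 7.24, 7.15, 7.72 and 7.61 in JEKO1, at 7.79, 7.70, 7.87 and 7.82 in JVM2, and at 7.10, 6.91, 7.29 and 7.02 in MAVER1. Neighbouring lines overlapped, and MAVER1 was the lowest. JEKO1 was only -0.36 (SE 0.09, adjusted p = 0.00288) below JVM2 and stood 0.36 above MAVER1 (SE 0.09, adjusted p = 0.00398). *ERAP1* had another order again: MAVER1 (6.92 to 7.45) was above JVM2 (6.71 to 6.81) by 0.43 (SE 0.11, adjusted p = 0.0049), and JEKO1 (5.40 to 6.06) was below both without overlap.

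Counted over the genes, JEKO1 against JVM2 gave 9 of 9 lower, where 78.3% of all genes were called and 38.6% were called lower. The median over the 9 was -1.96, against 0.03 over all genes. JEKO1 against MAVER1 gave 8 lower and 1, *NLRC5*, higher, where 66.4% were called and 31.8% were called lower, with a median of -1.32. MAVER1 against JVM2 called 8 genes, 7 lower and *ERAP1* higher, where 71.2% of all genes were called. The median over the 9 was -0.72, against -0.004 over all genes. These line differences are taken over the 4 treatments together. In the controls *TAP1* was at 8.54 in MAVER1 and 8.57 in JVM2, and with ironomycin at 7.91 and 8.55. *ERAP1* was at 6.92 and 6.71 in the controls, and at 7.34 and 6.76 with ironomycin.

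**Figure D2:**
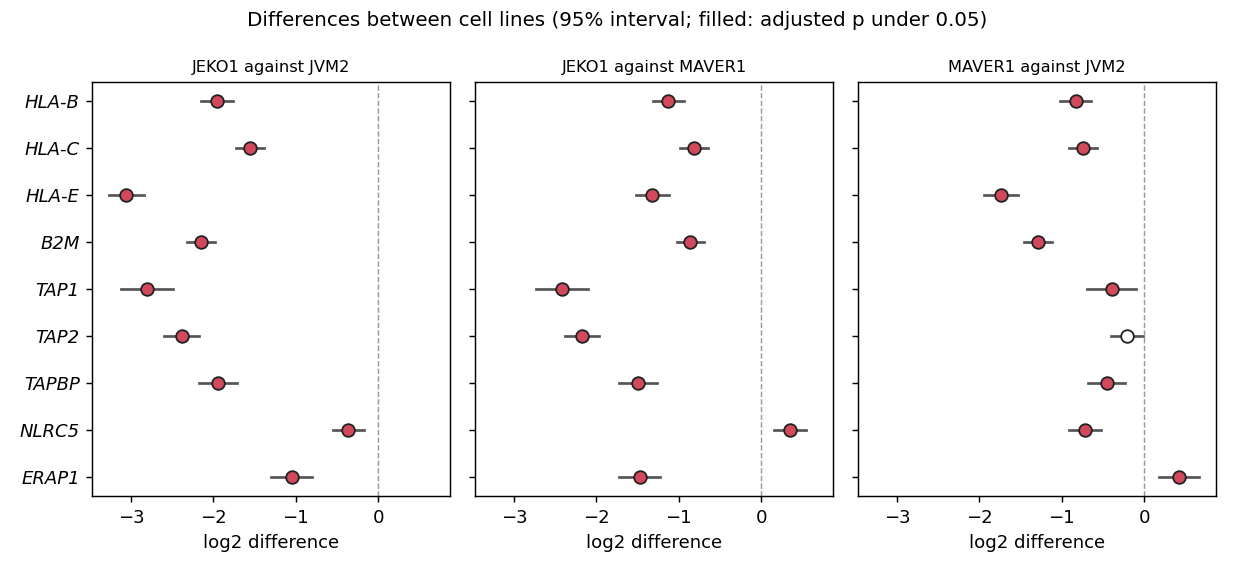
Fitted difference between each pair of lines (x axis, log2) for each gene (y axis), with its 95% interval; filled points have an adjusted p under 0.05. *HLA-E* reaches -3.06 between JEKO1 and JVM2, and *NLRC5* changes sign between the first and second panels.

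Per kilobase of the principal transcript, *HLA-B* was the most abundant of the 9 in every line. It averaged 2280 ± 93.4 CPM per kb in JVM2 (SD, n = 4), 1280 ± 29.7 in MAVER1 and 589 ± 51.2 in JEKO1. *B2M* averaged 1010 ± 73.9, 413 ± 31.8 and 228 ± 28.9 CPM per kb in the same order. *TAP2* was the least abundant, at 16.1 ± 0.286, 13.9 ± 1.08 and 3.08 ± 0.295 CPM per kb, below *TAP1* at 130 ± 7.98, 99.9 ± 23.7 and 18.4 ± 1.38. *HLA-C* averaged 1090 ± 48.1 CPM per kb in JVM2, 652 ± 21.1 in MAVER1 and 371 ± 27.7 in JEKO1, and within a library it was above *B2M* in 4 of 4 libraries of each line. The log2 difference per length was 0.12 ± 0.05 in JVM2 (SD, n = 4), 0.66 ± 0.10 in MAVER1 and 0.71 ± 0.21 in JEKO1. *HLA-E* followed in JVM2 at 450 ± 48.5, then *TAPBP* at 205 ± 14.3, *TAP1*, *NLRC5* at 32.5 ± 1.55 and *ERAP1* at 19.8 ± 0.62 CPM per kb. In JEKO1, *HLA-E* (54.0 ± 3.79) and *TAPBP* (53.8 ± 10.5) did not differ beyond their spread, and *NLRC5* (25.6 ± 4.87) was above *TAP1*.

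Other genes of the class I pathway also differed between the lines, in 45 of the 46 tested, near the 90% of all genes called. The immunoproteasome subunits *PSMB9* and *PSMB8* were lower in JEKO1 than in JVM2 by -2.06 (SE 0.07) and -1.83 (SE 0.11). *IRF1*, an interferon regulatory factor, differed by -0.53 (SE 0.17) and *RFX5*, a subunit of the complex that recruits NLRC5 to promoters, by -0.39 (SE 0.07). *CIITA*, the class II transactivator and a relative of *NLRC5*, was higher in JEKO1 by 0.37 (SE 0.10). Over the list, 33 genes were called lower in JEKO1 than in JVM2 and 11 higher, where 78.3% of all genes were called and 38.6% were called lower. The median over the list was -0.63, against 0.03 over all genes.

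Against this, treatment moved the 9 genes little. Ironomycin against control called none of the 9, where 0.584% of all genes were called by edgeR. At an unadjusted p under 0.05 there were 2 of the 9, near the 22.5% of all genes, *B2M* at 0.21 (95% interval 0.02 to 0.40, adjusted p = 0.182) and *ERAP1* at 0.37 (0.08 to 0.65, adjusted p = 0.135). DESeq2 called both, but the share of all genes it called here was not counted, so these calls cannot be set against it. The median over the 9 was 0.04, against 0.03 over all genes. *HLA-B* changed by 0.04 (95% interval -0.18 to 0.25) and *HLA-C* by 0.08 (-0.12 to 0.28), so that a change of 1 log2 unit lay far outside the intervals of both.

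Ibrutinib against control called none of the 9 and 0% of all genes, with DESeq2 calling none of the 9 either. *NLRC5* had the only unadjusted p under 0.05 of the 9 (0.0336, adjusted p = 1), where 3.64% of all genes had one, at 0.25 (95% interval 0.02 to 0.47). Its log2 ratio to control was 0.48 in JEKO1, 0.18 in MAVER1 and 0.08 in JVM2, above 0 in 3 of 3 lines. *TAPBP* in JEKO1 was at a log2 ratio of -0.48 with ibrutinib and 0.23 with both drugs. Its fitted ibrutinib change was -0.14 (95% interval -0.40 to 0.12).

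Both drugs together, set against control, called 1 of the 9, *ERAP1*, where 28.2% of all genes were called, 14.2% higher and 14% lower. The change of *ERAP1* was 0.43 (SE 0.13, adjusted p = 0.0298), or 1.35-fold, and the median over the 9 was 0.09 against 0.05 over all genes. The call was lost without JEKO1 (0.32, adjusted p = 0.169), without MAVER1 (0.38, adjusted p = 0.233) and in a fit of only the 6 libraries compared (0.41, adjusted p = 0.125). Both drugs against ironomycin called none of the 9, where 0% of all genes were called. *B2M* at -0.20 and *NLRC5* at 0.23 had an unadjusted p under 0.05 there, with adjusted p of 0.453 and 0.461, and DESeq2 called none of the 9. Both drugs against ibrutinib also called none, where 23.3% of all genes were called. The nearest to the threshold were *TAPBP* at 0.32 (adjusted p = 0.0732) and *ERAP1* at 0.34 (adjusted p = 0.0794), the only genes of the 9 with an unadjusted p under 0.05. DESeq2 called *TAPBP*, with its share over all genes not counted here either. The effect of both drugs did not depart from the sum of the single-drug effects in any of the 9 by edgeR or DESeq2, with 0 genes of the 9 at an unadjusted p under 0.05 and 0% of all genes called; the intervals still allow departures, for instance -0.11 to 0.63 for *TAPBP*. These comparisons share libraries and are not independent of each other.

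**Figure D3:**
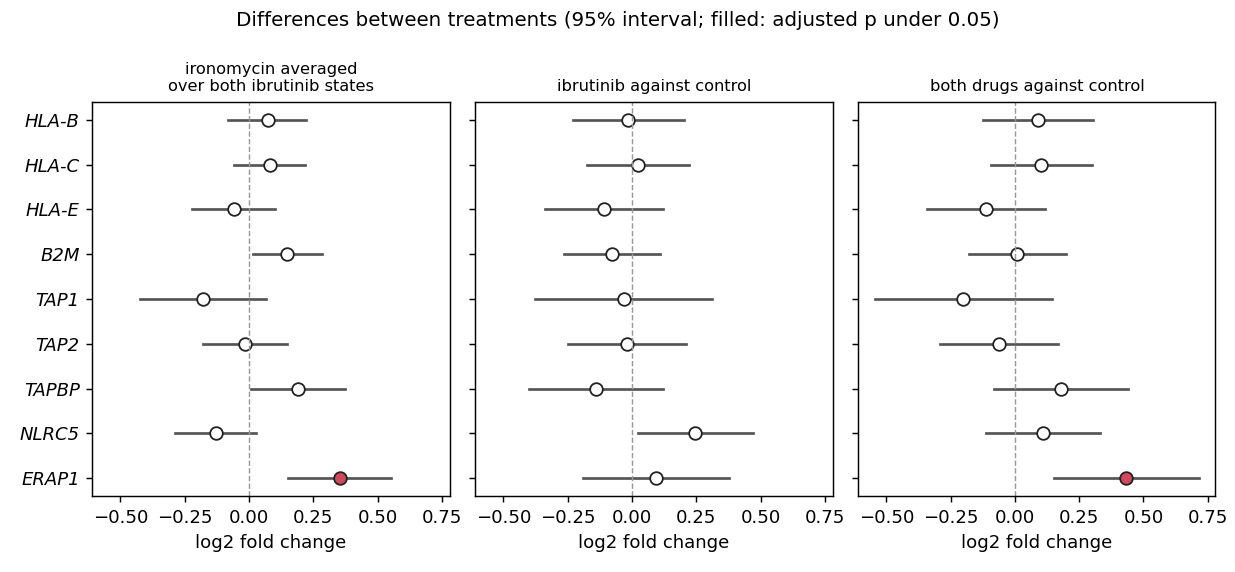
Fitted change of each gene (y axis) in log2 units (x axis) with its 95% interval in 3 treatment comparisons; filled points have an adjusted p under 0.05. *ERAP1* is filled in the first panel at 0.35 and in the third at 0.43, and no gene is filled under ibrutinib.

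Averaging the ironomycin effect over both ibrutinib states used all 6 libraries with ironomycin, a pair from each of the 3 lines. The fit took the libraries of a pair as separate, so its p-values do not rest on the spread of the response between lines alone. *ERAP1* was the 1 gene of the 9 called, where 33.4% of all genes were called, 17.1% higher and 16.3% lower. Its level was 5.40, 6.03, 5.40 and 6.06 in JEKO1, 6.71, 6.76, 6.79 and 6.81 in JVM2, and 6.92, 7.34, 7.11 and 7.45 in MAVER1. In JEKO1 and MAVER1 both libraries with ironomycin were above both without it, and in JVM2 the 4 libraries lay within a narrow range. The averaged change was 0.35 (SE 0.09, adjusted p = 0.0137), or 1.28-fold. *B2M*, at 0.15 (95% interval 0.02 to 0.28, adjusted p = 0.0798), and *TAPBP*, at 0.19 (0.01 to 0.37, adjusted p = 0.103), were higher in 3 of 3 lines but missed the threshold in edgeR. DESeq2 called *B2M* (0.13, adjusted p = 0.015), where it called 37.5% of all genes. With library totals in place of TMM, *B2M* (0.23, adjusted p = 0.0125) and *TAPBP* (0.28, adjusted p = 0.0382) were also called, where 34.1% of all genes were called. The *ERAP1* call was lost without JEKO1 (0.21, adjusted p = 0.159) and without MAVER1 (0.34, adjusted p = 0.141). The share of all genes called in these fits was also lower, 9.79% and 2.7%.

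The ironomycin effect differed between the lines for 2 of the 9 genes, where 9.38% of all genes were called. With 1 library per line and treatment, the libraries of a line with and without ibrutinib stood as replicates in this test. Its p-values and SEs therefore measure agreement across ibrutinib states, not between repeated cultures of a line. For *TAP1* (adjusted p = 0.0104) the fitted effect was -0.59 in MAVER1 (SE 0.09), -0.12 in JVM2 (SE 0.09) and 0.17 in JEKO1 (SE 0.09). In MAVER1 the level was 8.54 in control and 8.40 with ibrutinib, against 7.91 with ironomycin and 7.86 with both drugs, so the libraries with and without ironomycin did not overlap. Without MAVER1 the *TAP1* difference was no longer called (adjusted p = 0.424). For *ERAP1* (adjusted p = 0.0168) the fitted effect was 0.65 in JEKO1 (SE 0.08), 0.38 in MAVER1 (SE 0.08) and 0.04 in JVM2 (SE 0.08), and the call was lost when any 1 line was left out, with adjusted p from 0.0651 to 0.221. JEKO1 received less ironomycin than the other lines, and its part in these differences was not tested.

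Genes that overlap these on the opposite strand were read out beside them, since the strand setting of the counting is not given in the sources used here. *CAST*, which overlaps *ERAP1*, was at a log2 ratio of 0.26 in JEKO1, 0.06 in MAVER1 and 0.04 in JVM2 with ironomycin averaged over both ibrutinib states, and its fitted change was 0.12 (SE 0.06, adjusted p = 0.14). *PSMB8-AS1*, which overlaps *TAP1*, had 281 to 545 reads per library over all lines. *TAP1* had 8774 to 13457 reads in MAVER1 but only 1983 to 2497 in JEKO1. The averaged log2 ratio of *PSMB8-AS1* was 0.17 in MAVER1, -0.11 in JEKO1 and -0.40 in JVM2. How far reads were shared within either pair was not tested.

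**Figure D4:**
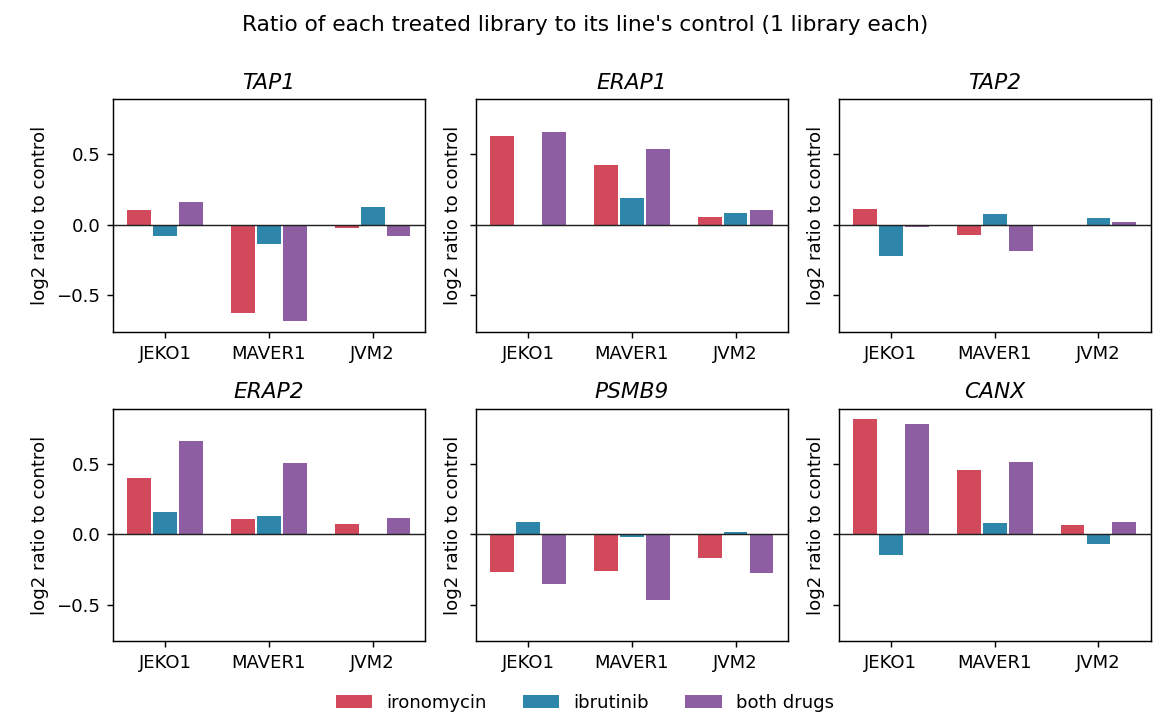
Ratio of each treated library to the control library of its line (y axis, log2) for 6 genes in the 3 lines (x axis), with bars for ironomycin, ibrutinib and both drugs, 1 library each and so without error bars. *TAP1* is at -0.63 and -0.68 in MAVER1 with ironomycin and both drugs, and *ERAP1* at 0.63 and 0.66 in JEKO1.

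The other pathway genes were counted by role under ironomycin. In the averaged comparison the pair of ironomycin libraries of each line was again taken as separate. Of the 46 tested, 29 were called with ironomycin averaged over both ibrutinib states, 13 higher and 16 lower, beside the 33.4% of all genes called. The median over the list was -0.002, against 0.04 over all genes. Library totals in place of TMM gave 16 higher and 11 lower. Without MAVER1 and with no block 0 of the 46 were called, in any role, where 2.7% and 0% of all genes were called. Without JEKO1 2 were called higher and 7 lower, where 9.79% of all genes were called. No gene of the list was called with ironomycin alone, with ibrutinib or with both drugs against ironomycin, and 19, 0 and 2 of them had an unadjusted p under 0.05, where 22.5%, 3.64% and 10.5% of all genes did. Both drugs against control called 21, 8 higher and 13 lower, where 28.2% of all genes were called, 14.2% higher and 14% lower. Both drugs against ibrutinib called 19, where 23.3% of all genes were called.

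In the averaged comparison the proteasome genes were called lower in 6 of 6, where 16.3% of all genes were called lower. This held for the immunoproteasome catalytic subunits and the activator subunits that gate peptide output alike. *PSMB8* fell by 0.54 (SE 0.09, adjusted p = 0.0019), with averaged log2 ratios of -0.84 in JEKO1, -0.46 in MAVER1 and -0.33 in JVM2. *PSMB9* fell by 0.31 (SE 0.05, adjusted p = 0.00211), at -0.36, -0.35 and -0.23 in the same lines, and *PSMB10* by -0.30 (SE 0.06). *PSME3*, *PSME2* and *PSME1* changed by -0.51, -0.33 and -0.25. The starts of *TAP1* and *PSMB9* lie 488 bases apart in the RefSeq promoter table, on opposite strands, and their averaged log2 ratios had opposite signs in JEKO1 (*TAP1* 0.17, *PSMB9* -0.36) and were both below 0 in MAVER1 (*TAP1* -0.59, *PSMB9* -0.35) and JVM2 (*TAP1* -0.11, *PSMB9* -0.23). All 6 stayed below 0 under RLE, library totals, DESeq2 and no block, and without each line. Without JEKO1 5 of 6 were called, where 9.79% of all genes were called. Without MAVER1 and with no block 0 of 6 were called, where 2.7% and 0% of all genes were.

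Of the loading and trimming genes 7 of 8 were called higher, where 17.1% of all genes were called higher. *CANX*, coding for calnexin, the chaperone that folds new heavy chains, rose by 0.47 (SE 0.11, adjusted p = 0.00934), at 0.87 in JEKO1, 0.45 in MAVER1 and 0.11 in JVM2. *PDIA3*, whose product sits with tapasin in the loading complex, rose by 0.44 (SE 0.10), *UGGT1*, which checks glycoprotein folding, by 0.43 (SE 0.09), and *CALR*, coding for calreticulin, by 0.31 (SE 0.08). *ERAP2*, the partner of *ERAP1* in trimming, rose by 0.26 (SE 0.07, adjusted p = 0.0202), and *LNPEP*, an aminopeptidase of endosomes, by 0.25 (SE 0.07). *TAPBPL*, a relative of *TAPBP*, was not called, at 0.17 (SE 0.11). Without JEKO1 1 of the 8 was called, where 9.79% of all genes were, with 7 above 0 and 1 below it. The median of the 8 was 0.28, 0.25 without JEKO1 and 0.29 without MAVER1.

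Among the 8 heavy chains outside the 9, 3 were called higher and 3 lower, where 17.1% and 16.3% of all genes were. Without JEKO1 1 was called, where 9.79% of all genes were. *HFE*, a class I-like regulator of iron uptake, fell by 0.79 (SE 0.17, adjusted p = 0.00543), and *CD1D*, which presents lipids, was at -1.48 (SE 0.22, adjusted p = 0.00277) with no reads in JVM2. The *HFE* level was low in JEKO1 (log2 CPM -0.994 to 0.416) and MAVER1 (-0.035 to 1.499), against 3.117 to 3.755 in JVM2. Its averaged log2 ratios were -0.981, -1.075 and -0.427 in these lines. *FCGRT*, the neonatal Fc receptor, rose by 0.26 (SE 0.07) and *MICB*, a stress ligand of NKG2D, fell by 0.21 (SE 0.06). *HLA-F* rose by 0.27 (SE 0.08, adjusted p = 0.0288), and by 0.48 (SE 0.12, adjusted p = 0.0145) for both drugs against control. Of the cytosolic peptidases 3 of 5 were called lower, where 16.3% of all genes were. They were *LAP3* at -0.35, *THOP1* at -0.32 and *BLMH* at -0.14. Without JEKO1 1 peptidase was called, where 9.79% of all genes were. None of the 4 tested genes of surface turnover was called, where 33.4% of all genes were. They had 0 at an unadjusted p under 0.05, where 44.3% of all genes had one.

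Of the 15 regulators, 3 were called higher and 4 lower, where 17.1% and 16.3% of all genes were. Without JEKO1 1 was called, where 9.79% of all genes were. *STAT2*, a transcription factor of type I interferon signaling, rose by 1.05 (SE 0.23, adjusted p = 0.00719), at 1.59 in JEKO1, 1.49 in MAVER1 and 0.04 in JVM2. *CIITA* rose by 0.29 (SE 0.08), whereas *IRF8*, a factor of B-cell and myeloid development, fell by 0.79 (SE 0.18), *NFYC*, a subunit of NF-Y, by -0.26 (SE 0.06), and *RFXANK*, a partner of *RFX5*, by -0.23 (SE 0.06). *IRF1* was at 0.29 (SE 0.14, adjusted p = 0.133) and *RFX5* at 0.10 (SE 0.06), and neither passed. *IRF1* did differ between the lines in its ironomycin effect (adjusted p = 0.0235), at 0.79 in JEKO1, 0.23 in MAVER1 and -0.15 in JVM2.

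**Figure D5:**
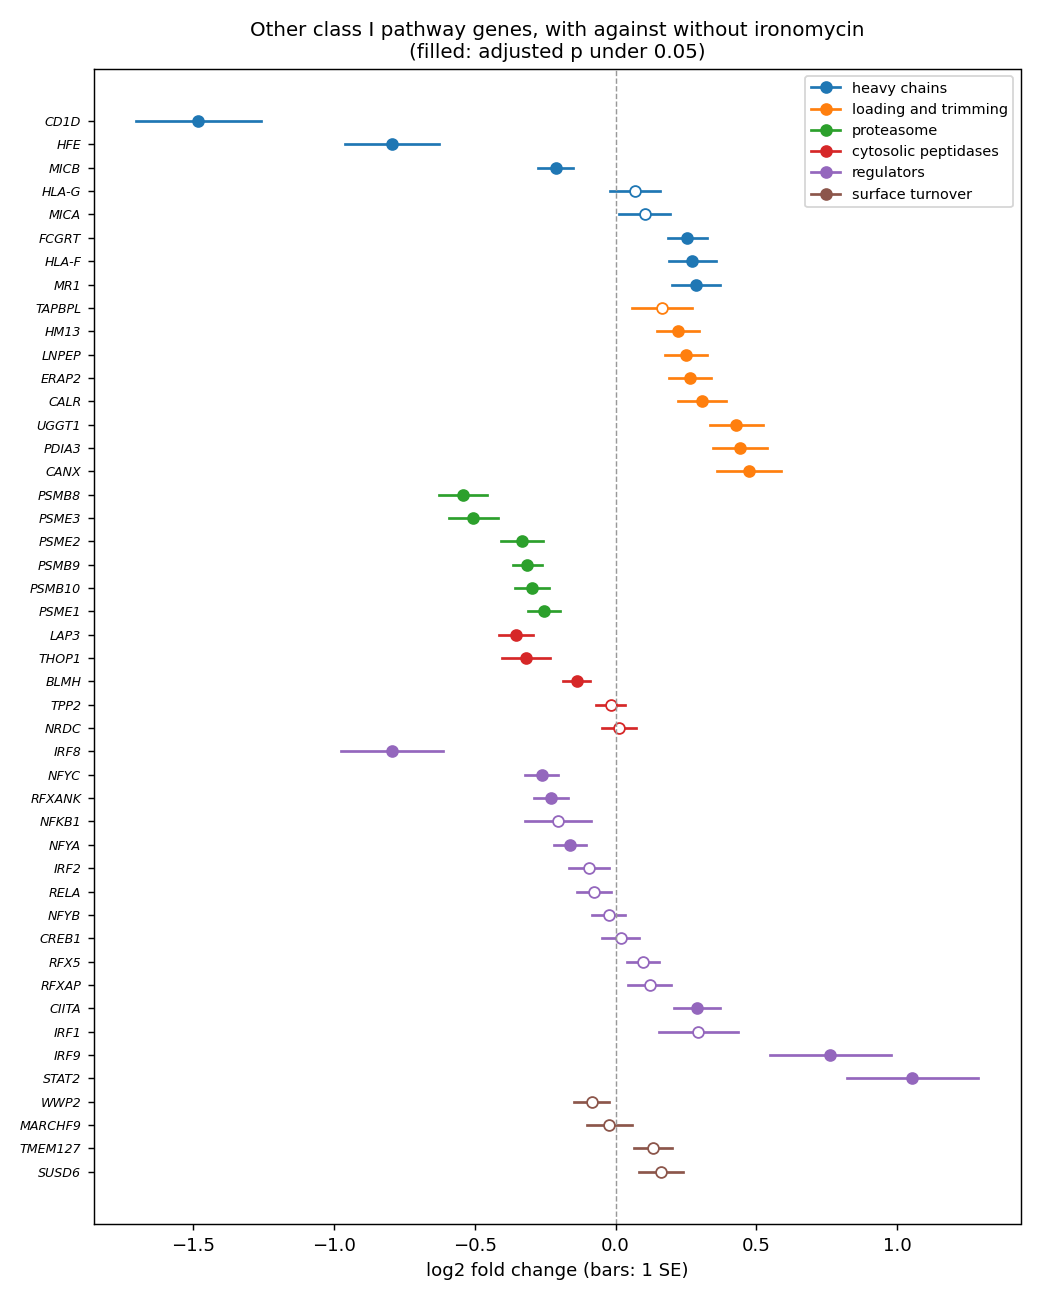
Change of each other pathway gene (y axis, grouped by role) with ironomycin averaged over both ibrutinib states (x axis, log2, bars of 1 SE); filled points have an adjusted p under 0.05. The 6 proteasome genes lie below 0 and the 8 loading and trimming genes above it.

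By Pearson correlation of log2 CPM centred within each line over the 12 libraries, the genes most like *HLA-B* among 11222 were *ZFYVE27* (r = 0.955), *C1orf159* (0.952) and *BRSK1* (0.947). Those most like *B2M* were *VEZT* (0.937), *TEC* (0.928) and *PIGK* (0.925), and those most like *TAP1* were *AUP1* (0.956), *ANGEL1* (0.954) and *QTRT1* (0.949). For *NLRC5* they were *OSBPL3* (0.971), *ISCA1* (0.961) and *NRXN2* (0.954). The libraries share lines and treatments, the highest of 11222 values are given, and the correlations are a description.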

How the data were processed

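RNA-seq was performed in 12 libraries of established MCL lines, with paired-end reads of polyA RNA. The authors deposited raw read counts per Ensembl gene; per the labels, STAR, DESeq2 and GRCh37 were used, and the counter, its strand setting and tool versions are not given in the sources used here. Names came from a table of Ensembl names for 52181 of 63677 identifiers and from GENCODE v29 for 345 more; 11151 had none.

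Counts were analysed with edgeR 4.0.16 in R 4.3.3: TMM scaling, filterByExpr by treatment, and quasi-likelihood tests of treatment with the cell line as a block (for lines, treatment as the block) over 12 libraries, Benjamini-Hochberg adjusted over 18674 genes, called at an adjusted p under 0.05 with no fold minimum. The SE is the log2 change divided by the root of F. Levels are log2 CPM with a prior count of 2; lengths are those of GENCODE v29 principal transcripts. Lines pair the samples: deviations from treatment means correlated at 0.926 to 0.976 within lines and -0.705 to -0.127 between lines. The tests were checked on simulated counts with known changes. Alternatives were RLE, library totals, no filter, DESeq2 1.42.0, a robust fit, no block, a fold minimum, fewer libraries and each line left out.

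The 9 genes and the pathway and marker lists were chosen with earlier results of these data known. One gene of the pathway list is not reported here and is left out of its counts. Named pathway genes were 9 fixed ones and, by role, at most 4 others with the smallest adjusted p among those called in a treatment comparison. *FCGRT* and *IRF9* are named in addition. The 3 genes most like each of *HLA-B*, *B2M*, *TAP1* and *NLRC5* were named by the correlation. Totals were 35448523 to 38630809 reads per library, and *TAP2*, the least counted of the 9, had 267 to 1496 reads.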

Additional observations from a re-analysis of the deposited data

Results flagged for a closer look

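For *TAP1* and *ERAP1*, and for 7 of the 46 tested genes of the pathway list, the effect of ironomycin was unequal across the cell lines. This was a test of the difference itself (edgeR quasi-likelihood test over the lines, adjusted over all 18674 genes), and it called 9.38% of all genes. The libraries of a line with and without ibrutinib stood as its replicates. The *ERAP1* call was lost when any 1 line was left out, and the *TAP1* call without MAVER1. The adjusted p was 0.0104 for *TAP1* and 0.0168 for *ERAP1*. Among loading genes it was 0.012 for *CANX*, 0.0307 for *UGGT1* and 0.0302 for *TAPBPL*, whose averaged log2 ratio was 0.58 in JEKO1, 0.02 in MAVER1 and -0.07 in JVM2. It was 0.0461 for *PSMB8*, 0.0235 for *IRF1* and 0.0011 for *STAT2*. For *IRF9*, which is named here only because it was picked out by this test, it was 0.0195, with averaged log2 ratios of 1.28 in JEKO1, 1.09 in MAVER1 and -0.01 in JVM2. JVM2 had the smallest or a negative ironomycin effect for *ERAP1*, *CANX*, *UGGT1*, *TAPBPL*, *IRF9*, *IRF1* and *STAT2*. The effect was also smallest in size in JVM2 for *PSMB8* and *TAP1*. The averaged log2 ratio of *PSMB8* was -0.33 in JVM2, -0.84 in JEKO1 and -0.46 in MAVER1. That of *TAP1* was -0.11 in JVM2, 0.17 in JEKO1 and -0.59 in MAVER1. JVM2 and MAVER1 received the same ironomycin dose (250 nM), and JEKO1 a lower one (50 nM) that cannot be told apart from the line.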

How the results depend on the processing

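The 9 genes differed between the lines under every alternative run, except *NLRC5* when a log2 difference of at least 1 was asked for. Numbers of the 9 called that moved were as follows. Ironomycin against control gave 0, 2 with DESeq2, and 0 to 1 without each line. Both drugs against control gave 1, and 0 with no block, with a log2 fold change of at least 1, with only the 6 libraries compared, and 0 to 1 without each line. Both drugs against ibrutinib gave 0, 2 with library totals, 1 with DESeq2 and 0 to 1 without each line. Ironomycin averaged over both ibrutinib states gave 1, 3 with library totals, 2 with DESeq2, 0 with no block or a log2 fold change of at least 1, and 0 to 1 without each line. Of all genes, 33.4% were called in the main fit of this comparison, 34.1% with library totals and 37.5% with DESeq2. Shares of all genes under the alternatives were counted for this comparison only. The ironomycin effect by cell line gave 2, and 0 to 1 without each line. Without the line as a block *ERAP1* was at 0.41 for both drugs and 0.31 averaged (adjusted p = 1 in each); the cause was not tested. No called change of the 9 turned direction. Of 846 single-gene values, 822 stayed the same, 14 lost a call and 10 gained one. The 822 include the mean level of each of the 9 genes with a prior count of 5, to which no threshold applies. The fold minimum was set on the main fit, so it could only remove calls. Library totals moved the median of all genes by 0.12 for both drugs against control and by 0.10 against ibrutinib. *HLA-B* and *HLA-C* added up as 1 gene, an alternative chosen after seeing the data, changed by 0.07 with ironomycin averaged (adjusted p = 0.444). Summing identifiers of the same symbol was not run, since each symbol had 1. The counts of pathway genes by role under other settings were also chosen after seeing the data. With 1 library for each line and treatment, no spread within a line and treatment could be measured.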
